A study of Homo sapiens with 2 samples.

Results

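The miRBase entries numbered miR-4632 to miR-4804 were examined, a block of human microRNAs of which many were described from small RNA sequencing of breast tissue. The numbers decide membership, and no measured value enters the rule. All probes that name 1 miRNA in this range were taken, with any letter and arm, which gave 279 probes of 2632 miRNA probes on the array, 105 for a 5p arm, 105 for a 3p arm and 69 for names without an arm. The probes cover 105 hairpins with both arms. The samples are titled exosome and come from the U87MG delta EGFR line, a glioblastoma line that carries a truncated epidermal growth factor receptor, grown in medium with exosome-depleted serum. The control sample is labelled non-treated, and the other sample received boron neutron capture therapy (BNCT), in which thermal neutrons split boron taken up by the cell. The labels give 25 ppm of a boronophenylalanine-fructose complex for 2 hours, then neutrons, with medium collected on day 3, and print this text for both samples, so compound, neutrons, handling and collection time cannot be told apart. The labels' extraction text names cells as the source of the RNA, and which of them was used was not resolved here. There was a single array for each, hence no replicate and no test, and all comparisons are of sizes.

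A microRNA gene is transcribed into a folded precursor, the hairpin, from which Drosha and Dicer cut a short duplex. The strand from the left side of the hairpin is the 5p arm and the strand from the right side is the 3p arm. Usually 1 of the strands is kept by an Argonaute protein and the other is degraded, and bases 2 to 8 of the kept strand, the seed, pair with target messages. In a mirtron the hairpin is a whole short intron, the splicing machinery makes the first cut in place of Drosha, and the 3p arm therefore ends with the AG of a 3′ splice site.

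The hairpins with the brightest arms are printed first, since the results turn on their arms. The sequences are RefSeq's on GRCh38.p14, 250 of the 279 members matched by name, and capitals mark the seed. The 6 hairpins are the brightest of those in which both arms were above the detection limit on at least 1 array.
miR-4723-5p: uGGGGGAGccaugagauaagagca
miR-4723-3p: cCCUCUCUggcuccuccccaaa
miR-4787-5p: gCGGGGGUggcggcggcauccc
miR-4787-3p: gAUGCGCCgcccacugccccgcgc
miR-4632-5p: gAGGGCAGcguggguguggcgga
miR-4632-3p: uGCCGCCCucucgcugcucuag
miR-4763-5p: cGCCUGCCcagcccuccugcu
miR-4763-3p: aGGCAGGGgcuggugcugggcggg
miR-4758-5p: gUGAGUGGgagccgguggggcug
miR-4758-3p: uGCCCCACcugcugaccacccuc
miR-4695-5p: cAGGAGGCagugggcgagcagg
miR-4695-3p: uGAUCUCAccgcugccuccuuc
In each of the 6 the arm with the higher share of G was the brighter one on both arrays. For miR-4763 that was the 3p arm (62.5% G against 19.0% in the 5p arm), and for the other 5 it was the 5p arm, for example miR-4695-5p (54.5% G against 13.6%) and miR-4723-5p (41.7% against 9.1%).

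Signal on both arrays was low. The 312 blank spots had a mean of 258.1 units in control and 254.9 in BNCT, without the top and bottom 5%. A probe was called detected above that mean + 2 SD, which was 272.0 and 267.5 units, and 17 and 16 blank spots were themselves above it. The 112 spots that carry no probe were brighter than the blanks, with means of 301.1 and 288.5 units, and only 32 members in control and 54 in BNCT exceeded those means. Among markers of the line, miR-24-3p was bright (620.0 and 915.6 units) but miR-21-5p did not pass on either array (260.2 and 255.7). Of 9 glioblastoma markers 2 were detected on each array, of 6 blood and serum markers 0 in control and 3 in BNCT, and of 4 neuronal markers 0 and 2. The part of other cells' RNA in the results was not tested. No member carried a failure flag.

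Of the 279 members, 85 were detected in control (30.5%, 95% Wilson interval 25.4 to 36.1) against 28.7% of all probes that name 1 miRNA, and 109 in BNCT (39.1%, 33.5 to 44.9) against 36.2%. These intervals cover counting only. On both arrays 74 members were detected (26.5%, against 24.1% of all), in control alone 11 (3.94%, against 4.63%), in BNCT alone 35 (12.5%, against 12.1%), and on neither 159. These shares lie near those of all probes. Of the 105 5p probes 38 were detected in control (36.2%) and 45 in BNCT (42.9%), against 35.3% and 43.2% of the other 5p probes. Of the 105 3p probes 28 (26.7%) and 33 (31.4%) were detected, against 21.2% and 27.9%. Of the 69 without an arm 19 (27.5%) and 31 (44.9%) were detected, against 30.3% and 37.6%. With limits at 5 SD 36 and 54 members were above (12.9% and 19.4%, against 13.6% and 20% of all), and with limits from the spots without a probe 24 and 43 (8.6% and 15.4%, against 8.98% and 15.4%).

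**Figure D1:**
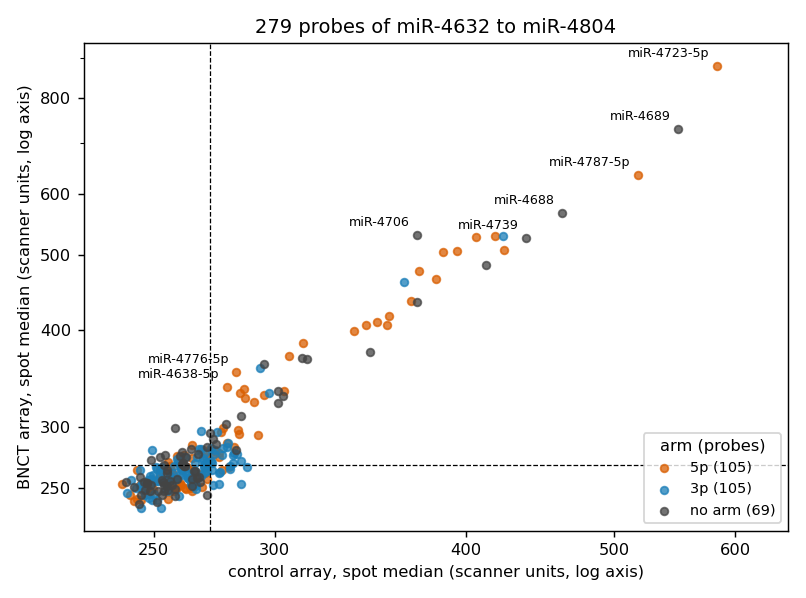
Spot median of each of the 279 probes on the control array (x axis) and the BNCT array (y axis), in scanner units on log axes, coloured by arm, with dashed lines at the detection limits of 272.0 and 267.5 units. Most probes lie in the cloud at the blanks, and miR-4723-5p is the brightest on both arrays.

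miR-4723-5p was the brightest member, at 583.6 units in control and 881.0 in BNCT. It ranked 16 and 10 among all miRNA probes. Its gene, MIR4723, lies on the plus strand at chr17:28360654-28360734 of GRCh38.p14, inside the span of VMA12 on the same strand. The table of gene spans used here gives no exons, so introns and exons were not told apart. The next in order on both arrays were miR-4689 (550.8 and 728.9 units), miR-4787-5p (518.3 and 634.8) and miR-4688 (462.0 and 567.3). MIR4787 lies inside DOCK3, which encodes an exchange factor for Rac, and MIR4688 inside DGKZ, a diacylglycerol kinase. miR-4739 (437.7 and 527.2), miR-4695-5p (423.7 and 508.4), miR-4763-3p (423.3 and 529.1), miR-4632-5p (417.7 and 530.4) and miR-4758-5p (406.2 and 527.6) were among the 10 brightest on both arrays, miR-4734 (412.1 and 485.6) in control and miR-4706 (371.5 and 532.1) in BNCT. Of these 11 members 5 are 5p arms, 1 is a 3p arm and 5 have no arm in their name.

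The 5p and the 3p probe of each hairpin were then set against the blanks of their array. Brightness also depends on how well each probe binds its target, so the brightness of 2 arms is given side by side and is not their ratio in the sample. In control 15 of 105 hairpins had both arms above the limit, 23 the 5p arm alone, 13 the 3p arm alone and 54 neither. In BNCT the counts were 26, 19, 7 and 53. In 721 other hairpins with both arms on the array, both were detected in 10.7% in control and 15.5% in BNCT, against 14.3% and 24.8% here, the 5p arm alone in 24.8% and 28.3% against 21.9% and 18.1%, and the 3p arm alone in 9.71% and 12.2% against 12.4% and 6.67%. The 171 hairpins of miR-6715 to miR-6895 had both arms in 24% and 31%, a higher share than the members on each array, and the 5p arm alone in 50.9% and 53.8%. The 14 hairpins of miR-4417 to miR-4540 had the 3p arm alone in 3 on each array and the 5p arm alone in 1 and 2. No test was run on these shares.

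**Figure D2:**
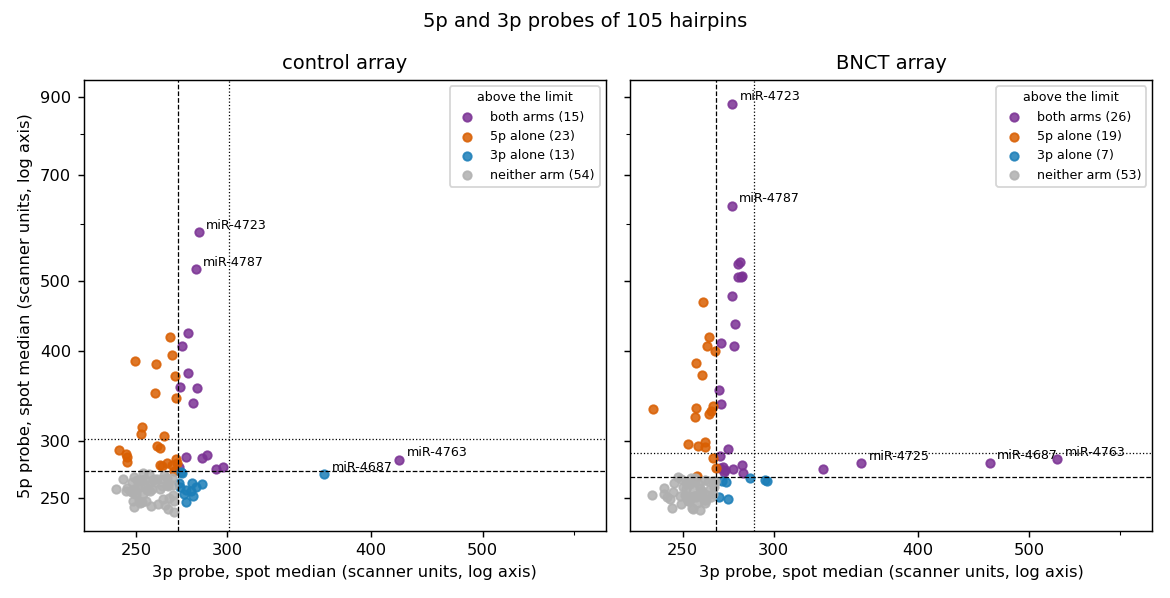
Spot median of the 3p probe (x axis) and the 5p probe (y axis) of each of 105 hairpins, in scanner units on log axes, for the control array and the BNCT array, coloured by which arm was above the limit. Dashed lines are the detection limits and dotted lines the means of the spots without a probe. The points form 2 branches along the axes and none lies beyond the dotted lines in both arms.

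In no hairpin were both arms well above the blanks. At 5 SD, 19 hairpins in control had the 5p arm alone, 4 the 3p arm alone and 0 both, and in BNCT 30, 6 and 0. In the other 721 hairpins the 5p arm alone passed in 21.2% and 28.3%, against 18.1% and 28.6% here, the 3p arm alone in 3.19% and 6.1%, against 3.81% and 5.71%, and both in 0.832% and 1.94%. These shares lie near each other. With limits from the spots without a probe there were 15 hairpins with the 5p arm, 2 with the 3p arm and 0 with both in control, and 25, 4 and 0 in BNCT. At this limit the 5p arm alone passed in 15% and 23.9% of the other 721 hairpins, against 14.3% and 23.8% here. The 3p arm alone passed in 2.22% and 4.72%, against 1.9% and 3.81%, so these shares are also near each other. The 2 hairpins with a bright 3p arm on both arrays were miR-4763 and miR-4687, joined in BNCT by miR-4725 and miR-4727. In the 15 hairpins with a bright 5p arm in control, that arm read 338.1 to 583.6 units (median 382.6) and the 3p arm 249.5 to 283.5 (median 272.9). In the 25 in BNCT the 5p arm read 323.3 to 881.0 units (median 406.3) and the 3p arm 235.4 to 281.5 (median 268.9). The dim arms thus read below the mean of the spots without a probe. In the other 721 hairpins, 2 in control and 5 in BNCT had both arms above the limits from spots without a probe.

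In 10 hairpins both arms passed the limit on both arrays, and in 7 of these in control and 6 in BNCT the 5p arm was the brighter. The widest gap was in miR-4723, whose 3p arm read 283.5 units in control and 276.2 in BNCT beside the 5p arm at 583.6 and 881.0. miR-4787-3p read 281.6 and 275.8 units, miR-4695-3p 277.4 and 281.5, and miR-4758-3p 274.2 and 279.4. MIR4758 lies inside LAMA5, a laminin chain of basement membranes, and MIR4695 inside ALDH4A1, a mitochondrial enzyme of proline breakdown. In miR-4655 the 5p arm read 372.6 and 477.0 units and the 3p arm 277.3 and 275.9. In miR-4749 they read 355.0 and 406.3 units in 5p and 282.1 and 277.1 in 3p. MIR4655 lies inside MAD1L1, a spindle checkpoint gene, and MIR4749 inside PTOV1.

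The order of the arms was turned in 3 of the 10 on both arrays. miR-4763-3p read 423.3 and 529.1 units beside miR-4763-5p at 282.4 and 282.5, and its gene lies inside MIRLET7BHG, the host transcript of let-7b. miR-4725-3p read 293.4 and 357.4 units beside miR-4725-5p at 274.2 and 279.0, and its gene lies inside MIR365BHG. miR-4727-3p read 297.4 and 331.4 units beside miR-4727-5p at 276.0 and 274.2. In these 3 the 3p arm was brighter in BNCT, before normalization, and the 5p arm read 274.2 to 282.5 units on both arrays. In the remaining hairpin, miR-4746, the arms were both close to the limit, at 276.0 and 277.0 units in 5p and 272.5 and 281.3 in 3p.

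A further 21 hairpins had both arms above the limit on 1 array only. In 9 the 5p arm was detected on both arrays and the 3p arm in BNCT alone, with the dim arm at 249.5 to 271.5 units in control and 268.9 to 281.1 in BNCT. This group holds miR-4632 (3p arm 267.5 and 280.4 units), miR-4728 (249.5 and 279.5) and miR-4667 (268.3 and 281.1). MIR4728 lies inside ERBB2, the gene of the HER2 receptor tyrosine kinase, at chr17:39726495-39726561 on the same strand, and MIR4632 lies inside TNFRSF1B, a receptor for tumour necrosis factor. The 5p arms were bright, with miR-4728-5p at 386.5 and 505.3 units and miR-4667-5p at 394.5 and 506.4. The hairpin of MIR4728 is printed with both arms in capitals, to show the short loop between them.
MIR4728: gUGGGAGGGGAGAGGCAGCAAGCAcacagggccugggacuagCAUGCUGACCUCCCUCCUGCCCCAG
Of the other 6, miR-4640 read 349.7 and 409.3 units in 5p and 259.3 and 270.2 in 3p, and lies inside DDR1, a collagen receptor kinase. miR-4722 read 368.3 and 435.8 units in 5p and 270.0 and 277.7 in 3p, and lies inside PIEZO1, a mechanically gated channel. miR-4685 was dimmer, at 292.7 and 292.4 units in 5p and 262.1 and 273.8 in 3p. In miR-4716 the 5p arm read 279.3 and 285.9 units and the 3p arm 265.9 and 269.3. In miR-4638 and miR-4776 the 3p arm lay within a few units of the limits on both arrays (271.5 and 270.2, and 270.7 and 268.9). Both 3p arms were dimmer in BNCT and passed there because its limit was lower. miR-4638-3p was the member nearest below the limit in control, and miR-4748, at 272.1 units, the nearest above. In BNCT these were miR-4636, at 267.3 units, and miR-4658, at 268.1.

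In 5 hairpins the 3p arm was detected on both arrays and the 5p arm in BNCT alone. miR-4687 was the bright one, with the 3p arm at 364.4 and 462.0 units and the 5p arm at 269.4 and 279.6, and lies inside STIM1, the calcium sensor of the endoplasmic reticulum. miR-4707 read 258.9 and 275.0 units in 5p and 273.1 and 269.4 in 3p, miR-4713 270.4 and 274.4 and 273.9 and 276.6. For miR-4717 the values were 255.5 and 270.1 units in 5p and 279.1 and 282.0 in 3p, and for miR-4783 261.8 and 275.9 and 272.4 and 271.2. In BNCT both arms of these 4 read 269.4 to 282.0 units, near the limit of 267.5. miR-4633 and miR-4740 had neither arm detected in control and both in BNCT, at 271.2 to 273.1 units.

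In the last 5 the 5p arm was detected on both arrays and the 3p arm in control only. The 3p arms read 280.3 units in control and 267.0 in BNCT for miR-4665, 272.9 and 263.8 for miR-4690, 287.9 and 265.7 for miR-4731, 285.2 and 252.9 for miR-4753 and 276.0 and 261.6 for miR-4756. The 5p arms read 338.1 and 398.8 units, 356.3 and 417.8, 286.3 and 335.3, 283.8 and 296.9, and 284.3 and 293.5 in the same order. All 5 had a 3p arm that was dimmer in BNCT before normalization, which the grouping fixes because the limit was lower in BNCT. Their 5p arms were brighter in BNCT, as were 34 of 36 member 5p probes detected on both arrays. Of the other 5p probes so detected, 227 of 242 were brighter in BNCT. MIR4731 lies inside PMP22, a myelin protein of peripheral nerve, MIR4690 inside PCNX3 and MIR4753 inside ARID4B, a chromatin protein. In miR-4738 the arms changed places, with the 5p arm detected in control only (277.2 and 263.5 units) and the 3p arm in BNCT only (268.3 and 296.0).

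Differences between the arrays were taken as BNCT minus control in normalized log2 level, with a spot error from the blanks and the spike controls. Of the 74 members detected on both arrays 0 differed 2-fold, and of all 630 probes so detected 0 did as well (0%). The differences ranged from -0.41 to 0.59 with a median of 0.01 and an SD of 0.19, against a median of -0.02 over all 630, and the median spot error of the members was 0.17. A median near 0 follows largely from the normalization. The direction followed the scaling: 41 of 74 members were higher in BNCT in the main setting, 30 with median scaling, 24 with the 75th percentile, 30 with the scanner's own background column, 62 in the authors' values, 70 without normalization and 74 with spike scaling. By arm, the medians were 0.03 in 36 members of the 5p arm, -0.01 in 19 of the 3p arm and -0.04 in 19 without an arm.

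**Figure D3:**
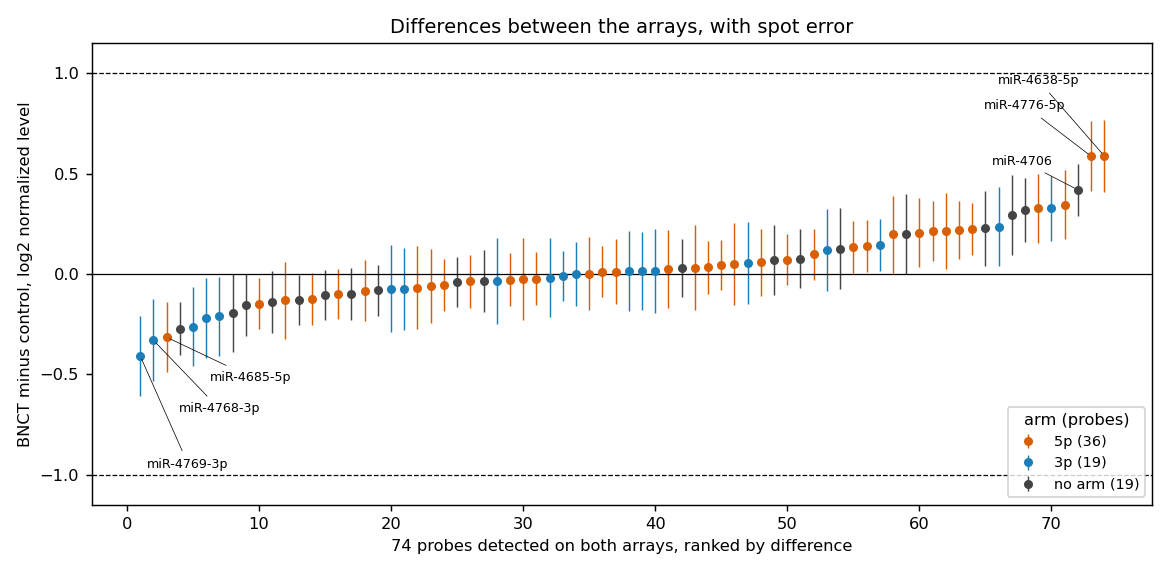
Difference BNCT minus control in normalized log2 level (y axis) of the 74 members detected on both arrays, ranked (x axis), coloured by arm, with the spot error as bars and dashed lines at 2-fold. No point reaches a dashed line, and miR-4706, miR-4776-5p and miR-4638-5p are the 3 highest.

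Beyond 3 spot errors lay 3 members, all higher in BNCT (4.05% of 74, against 2.38% of all probes), and 0 lower (1.59% of all). They were miR-4638-5p at 279.1 units in control and 337.4 in BNCT (0.59, spot error 0.18), miR-4776-5p at 283.2 and 353.2 (0.59, spot error 0.17) and miR-4706 at 371.5 and 532.1 (0.42, spot error 0.13). The first 2 were also the members that reached 0.5 (2.7%, against 1.9% of all), and 0 members were lower by 0.5 (1.75% of all). In control, miR-4638-5p and miR-4776-5p read under the 5 SD limit (292.8 units) and under the mean of the spots without a probe (301.1). With the limit at 5 SD or from those spots, 0 members reached 0.5. miR-4706 was over the 5 SD limits on both arrays, and its difference was 0.22 to 1.31 over the other 10 settings. miR-4638-5p kept its sign as well (0.18 to 1.67), while miR-4776-5p was -0.22 with the scanner's background column and 0.19 to 1.66 elsewhere. The next were miR-4743-5p (284.6 and 331.6 units, 0.35, spot error 0.17), which is in CTIF, and miR-4725-3p (0.33, spot error 0.16), at -0.33 and -0.26 with the scanner's background column. The sequences of the 3 members beyond 3 spot errors follow, with the seed in capitals, to show that no seed is shared among them.
miR-4638-5p: aCUCGGCUgcgguggacaagu
miR-4776-5p: gUGGACCAggauggcaagggcu
miR-4706: aGCGGGGAggaagugggcgcugcuu
MIR4706 lies inside FNTB, the beta subunit of protein farnesyltransferase, and also inside MAX, the partner of MYC, on the opposite strand. miR-4776 has 2 loci in RefSeq that occupy the same bases, chr2:212926257-212926336, on opposite strands, and the probes cannot tell them apart. The other arms, miR-4638-3p and miR-4776-3p, were under the limit in control, and their normalized levels differed by -0.03 each.

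The lowest members detected on both arrays were miR-4769-3p (285.2 and 270.7 units, -0.41, spot error 0.20), miR-4768-3p (281.6 and 268.8, -0.33, spot error 0.21), miR-4685-5p (292.7 and 292.4, -0.32, spot error 0.17), miR-4656 (346.5 and 375.4, -0.27, spot error 0.13) and miR-4723-3p (-0.26, spot error 0.20). With spike scaling all 5 turned, to 0.11, 0.14, 0.38, 0.61 and 0.25. None lay beyond 3 spot errors. The raw brightness of miR-4656 was higher in BNCT, and its negative value arises after scaling. For miR-4723-5p the difference was 0.22 (spot error 0.13). It was -1.63 when the background column of the scanner was used, which read 986.2 units at that spot in BNCT, more than the spot itself.

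Among members detected on 1 array, none had a bound of 2-fold. In control only these were 0 of 11 (1.65% of all 121 such probes) and in BNCT only 0 of 35 (0% of all 317). The bound divides the level on the detecting array by a floor on the other, which is the lowest level detected there or, if higher, what the probe itself read. In control only the highest bounds were those of miR-4731-3p (at least 1.46-fold higher in control) and miR-4753-3p (1.37-fold), followed by miR-4665-3p and miR-4782-3p (1.22-fold each, the latter at 280.3 and 264.3 units) and miR-4671-5p (280.2 and 265.7 units, 1.21-fold). Of the 11 members seen in control only 9 were 3p arms, 2 were 5p arms and 0 had no arm, and of 110 other such probes 49, 25 and 33, the rest having names of another form. In BNCT only the highest were miR-4788 (258.3 and 298.6 units, at least 1.27-fold higher in BNCT), miR-4738-3p (1.24-fold), miR-4664-5p (265.1 and 283.7 units, 1.12-fold), miR-4754 (270.9 and 282.1 units, 1.10-fold) and miR-4667-3p (1.09-fold). Of these 35 members 14 were 3p arms, 9 were 5p arms and 12 had no arm, and of 282 other such probes 100, 85 and 88, again with the rest named in another form.

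Whether the arms of a hairpin answered together was asked in the 10 hairpins with both arms detected on both arrays. The difference of the 5p probe less that of the 3p probe sets each probe only against itself across the arrays. It was positive in 5 and negative in 5, with a median of -0.01, and 0 reached 2-fold. The highest of the 10 was miR-4723 at 0.49 (error of 4 spots 0.23), where the 5p arm was 0.22 and the 3p arm -0.26. With plain blank subtraction it was 1.04, in the authors' values 1.19, and with the scanner's background column -1.89. The lowest of the 10 was miR-4725 at -0.28 (error 0.26), where the 5p arm was 0.05 and the 3p arm 0.33. The other 8 lay between -0.14 and 0.21, each within its error, miR-4655 at 0.21 (error 0.24) among them. With no normalization, or with median, 75th percentile or spike scaling, the median of the 10 was 0.40. Some hairpins with an arm under the limit on an array had larger values, in which that arm's reading is near the blanks. miR-4731 stood at 0.90 (error 0.26), with the 5p arm at 0.33 and the 3p arm, under the limit in BNCT, at -0.57. It was 0.17 to 2.76 over the 9 other settings that gave a value. miR-4776 stood at 0.62 (error 0.28), miR-4638 at 0.62 (error 0.28), miR-4753 at 0.61 (error 0.28) and miR-4738 at -0.64 (error 0.30), all within 3 errors. With the scanner's background column miR-4776 turned to -0.12 and miR-4753 to -0.21.

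Detection went with the base composition of the miRNA. In members with 50% G or more, 27 of 31 were detected in control and 29 in BNCT. In members with 20 to 30% G, 6 and 8 of 56 were detected (10.7% and 14.3%). Under 20% G, 14 and 16 of 85 were (16.5% and 18.8%), so detection did not rise steadily with G. Over all probes the shares were 11.7% and 14.9% at 20 to 30% G, and 15.9% and 19.2% under 20% G. Members detected on both arrays had a median of 45.5% G, and 49 of 67 held the letters GGG (73.1%). Members detected on neither had 22.7% G, and 14 of 141 held GGG (9.93%). Over all probes with a sequence the medians in these classes were also 45.5% and 22.7%, with GGG in 71.8% and 16.1%. Across the 250 members with a sequence, the share of G and the brightness over the blanks had Pearson r = 0.554 and Spearman rho = 0.431 in control, and 0.584 and 0.545 in BNCT. Over 2337 probes that name 1 miRNA and have a sequence, members included, the values were 0.481 and 0.376, and 0.516 and 0.492. These are correlations across probes that share an array, with no replicate behind them. The share of C had rho = 0.031 and 0.081 in the members, and the share of U -0.454 and -0.578. All probes showed the pattern, with 217 and 236 of 240 detected at 50% G or more. Its cause was not tested.

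**Figure D4:**
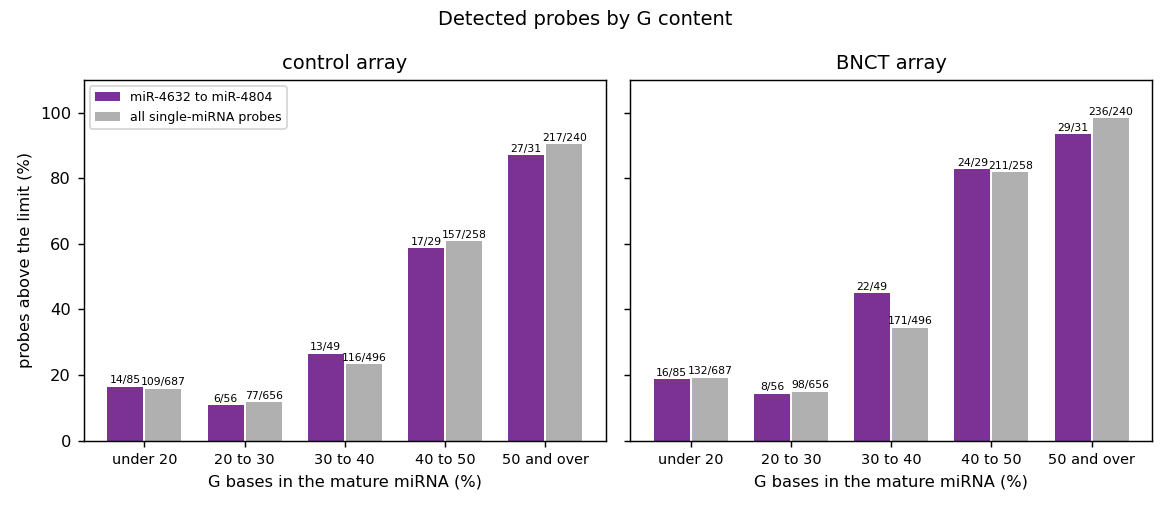
Share of probes above the detection limit (y axis, %) by the share of G in the mature miRNA (x axis), on the control array and the BNCT array, for the members (purple) and all probes that name 1 miRNA (grey), with counts over each bar. The bars stand at 87.1% and 93.5% of members at 50% G or more, and the grey bars at 90.4% and 98.3%.

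The members detected in control only had few G. Their median was 19.0% G over 10 with a sequence, against 31.8% over 32 detected in BNCT only, and 0 of 10 against 11 of 32 held GGG. Over all probes the medians were 22.7% in 108 and 31.7% in 280, and 17.6% and 41.8% held GGG. The arms of a hairpin were compared in the same way. Of 87 hairpins whose arms differ in G, the arm with more G was the brighter in 58 in control and 61 in BNCT, and of those with both arms detected in 12 of 14 in control and 24 of 25 in BNCT. In hairpins with the 3p arm alone the brighter arm had more G in 6 of 11 in control and 5 of 5 in BNCT, with the 5p arm alone in 14 of 18 and 10 of 12, and with neither arm detected in 26 of 44 and 22 of 45. The arms of other hairpins were not counted in this way, so the counts are not read as particular to the members.

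Hairpins whose 3p arm ends in AG, the ending of an intron, were looked at after the sequences were seen. This was so in 11 of the 90 hairpins with both sequences, among them miR-4632, miR-4667, miR-4722, miR-4728 and miR-4749, and in 12.9% of member 3p arms against 25.5% of the other 3p arms on the array. Those other 3p arms include arms of miR-6715 to miR-6895, which were not set apart. The 5p arm was detected in 8 of 11 in control and 8 in BNCT, against 24 and 29 of the other 79. It was under the limit on both arrays in miR-4668 (271.0 and 256.9 units), miR-4742 (253.3 and 255.3) and miR-4781 (255.7 and 262.1). The 3p arm was detected in 2 of 11 in control and 6 in BNCT, against 23 and 24 of 79. Detection by ending was not counted in hairpins outside the range, so these counts are not read as particular to the members. The 5p arms of these 11 hairpins had a median of 45.5% G, against 23.8% in the others, so ending and base content cannot be told apart here. The ending is a match of letters and does not show that the hairpin is an intron.

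In 3 pairs of members with a shared seed both were detected on both arrays, and their sequences are printed to show the shared seed in capitals.
miR-4739: aAGGGAGGaggagcggaggggcccu
miR-4756-5p: cAGGGAGGcgcucacucucugcu
miR-4706: aGCGGGGAggaagugggcgcugcuu
miR-4749-5p: uGCGGGGAcaggccagggcauc
miR-4675: gGGGCUGUgauugaccagcagg
miR-4741: cGGGCUGUccggaggggucggcu
The BNCT minus control differences of each pair stand side by side. miR-4706 was 0.42 and miR-4749-5p -0.13, miR-4741 was 0.08 (312.6 and 368.4 units) and miR-4675 -0.15 (301.4 and 322.0), and miR-4739 was -0.10 and miR-4756-5p -0.06. Some members share their seed with probes outside the range. miR-4688 shares it with miR-6743-5p, the brightest probe of both arrays (1183.7 and 1877.1 units). miR-4728-5p shares it with miR-149-3p (459.3 and 673.2) and miR-6785-5p (632.0 and 829.0), and miR-4665-5p with miR-1275, which was detected in BNCT only (269.9 and 354.1).

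Most hairpins of the range lie inside genes. Of 156 hairpin genes of members in RefSeq, 118 lie inside the span of a protein-coding gene. In 82 of them that gene's strand was given and was the same. Hairpins outside the range were not counted in this way, so the share is not read as particular to the members.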

How the data were processed

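RNA of 2 samples titled exosome, 1 control and 1 BNCT, was labelled with Cy5 by a 3D-Gene kit, per the labels. Per the file headers, the deposited scans give each spot a median intensity at 635 nm, joined over 3 gains by fitted lines, plus a background median and flags. The authors' deposited value table holds intensities on a linear scale, equal to the spot median minus a constant (258.1 and 254.9) divided by a factor (1.25 and 1.54), with a median of 25 on each array, which settles scale and direction. Software for these values: not given in the sources used here.

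In R 4.3.3, limma 3.58.1 corrected the background (nec on the 312 blank spots, offset 50). Values were put on the log2 scale and the 2632 miRNA probes were quantile-normalized. The scanner's background column, at or above the spot's own reading in 5 detected members in control and 14 in BNCT, was used only as an alternative. The spot error combines the blank SD (6.93 and 6.27 units) and the spike control CV, and covers neither cultures nor slides. No test was possible with single arrays. The steps were tested on simulated arrays. These held either no change or changes larger than any member's in the main setting, placed in probes well above the blanks. Recovery of smaller differences and of arms near the limit was not tested.

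The members, through their range of numbers, and the lists were chosen with earlier results of these data known. Named were hairpins with both arms detected on an array, the 10 brightest members per array, the 5 largest differences in each direction, those beyond 3 spot errors, the 5 largest bounds per array and the members nearest the limit. Gene spans, sequences and strands are RefSeq's, matched by name. Alternatives were 3 other background corrections, an offset of 16, 5 other scalings, 2 other limits and the authors' values.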

Additional observations from a re-analysis of the deposited data

How the results depend on the processing

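With 1 array per group, no spread between cultures or slides is known, and slide and group cannot be told apart. Counts of members and arms moved with the limit. With the limit at 5 SD, 36 members were detected in control and 54 in BNCT, 4 hairpins had the 3p arm alone and 82 neither arm in control, and 30 had the 5p arm alone in BNCT. With the limit from spots without a probe the members were 24 and 43, and in control 15 hairpins had the 5p arm alone, 2 the 3p arm alone and 88 neither, with 4 having the 3p arm alone in BNCT. Both limits left 0 hairpins with both arms. Members 2-fold higher in BNCT were 2 with plain subtraction, 2 without normalization, 15 with spike scaling and 8 in the authors' values, and 2-fold lower ones 2 with plain subtraction, 2 with the scanner's background column and 2 in the authors' values. The median difference was 0.50 without normalization, 0.78 with spike scaling and 0.44 in the authors' values. Over all probes detected on both arrays the medians were 0.49, 0.77 and 0.41 in the same order, near those of the members. Arms differing 2-fold in response were found in 1 hairpin each with plain subtraction, the scanner's background column and the authors' values, and the median arm difference was 0.40 with median, 75th percentile and spike scaling and without normalization. Bounds of 2-fold were 5 in control only and 2 in BNCT only with plain subtraction, and 1 in control only with an offset of 16. Shares over all probes in these settings are not given here, so the 2-fold counts and bounds are not read as particular to the members. The causes were not tested. The authors' values give no bounds, since unlisted probes have none, and with the limit from spots without a probe or at 5 SD no hairpin had an arm difference. No paired analysis was possible because each group has 1 sample.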
